A study of Mus musculus with 38 samples.

Results

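The SOX genes described here are 8 members of the Sry-related HMG-box family, namely Sox1, Sox2, Sox3, Sox4, Sox8, Sox9, Sox11 and Sox21. They were taken by symbol from the RNA and promoter ChIP tables, and all 8 are among the 25965 genes of the first and the 25888 genes of the second. The rule uses the symbols alone. Neural stem and progenitor cells (NSPCs) had been derived from the subventricular zone, the main germinal niche of the adult forebrain, and grown as neurospheres with EGF and FGF-basic to the second passage. The main cohort comprised 3 derivations from young adult (3 months) and 3 from aged (18 months) male C57BL/6JBabr mice with no genetic modification or treatment, each pooled from 5 mice, and it was profiled by poly(A) RNA-seq, by native ChIP-seq of H3K4me3, H3K27me3 and Input, and by bisulfite (BS) and oxidative bisulfite (oxBS) sequencing. A separate cohort of C57BL/10 mice, kept in another animal facility, gave 1 young adult and 1 aged RNA library at the same ages. Each library holds cultured progenitors of several mice, so neither the spread between animals nor the cells in the tissue are seen in these data, and differences in cell number and in RNA per cell cannot be told apart.

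SOX proteins bind the minor groove of DNA through the HMG box and act together with partner factors, such as POU proteins, at shared target genes. The SoxB1 proteins Sox1, Sox2 and Sox3 maintain neural progenitors, and the SoxB2 protein Sox21 counteracts them. The SoxC proteins Sox4 and Sox11 act in neuronal differentiation, and the SoxE proteins Sox8 and Sox9 in the generation of glia, with Sox9 also needed for neural stem cell identity.

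The start sites of 1 gene of each group are shown because the windows of the histone and DNA methylation values below include them, although those of Sox21 and Sox8 are centred on another annotated start of the gene. Each run is the 250 bases just upstream of the RefSeq start (GRCm38.p6, sequence credited to RefSeq), 5′ to 3′ on the strand of the gene, with every CG dinucleotide, the site of DNA methylation, in capitals. They lie at chr3:34649745-34649994 on the + strand (Sox2, SoxB1), chr14:118237031-118237280 on the - strand (Sox21, SoxB2), chr12:27342719-27342968 on the - strand (Sox11, SoxC) and chr17:25570687-25570936 on the - strand (Sox8, SoxE). The windows of 6 of the 8 genes were in the RefSeq table, and Sox3 and Sox9 were not.
Sox2: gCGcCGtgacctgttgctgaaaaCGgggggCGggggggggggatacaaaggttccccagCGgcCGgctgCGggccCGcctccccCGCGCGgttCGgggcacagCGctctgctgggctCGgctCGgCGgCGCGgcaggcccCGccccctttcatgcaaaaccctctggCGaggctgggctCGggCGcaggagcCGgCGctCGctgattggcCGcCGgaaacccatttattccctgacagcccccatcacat
Sox21: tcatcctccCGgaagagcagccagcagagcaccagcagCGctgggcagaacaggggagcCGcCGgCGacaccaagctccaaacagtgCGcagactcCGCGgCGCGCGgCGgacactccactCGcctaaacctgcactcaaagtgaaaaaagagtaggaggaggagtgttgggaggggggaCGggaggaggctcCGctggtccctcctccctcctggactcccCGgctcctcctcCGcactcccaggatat
Sox11: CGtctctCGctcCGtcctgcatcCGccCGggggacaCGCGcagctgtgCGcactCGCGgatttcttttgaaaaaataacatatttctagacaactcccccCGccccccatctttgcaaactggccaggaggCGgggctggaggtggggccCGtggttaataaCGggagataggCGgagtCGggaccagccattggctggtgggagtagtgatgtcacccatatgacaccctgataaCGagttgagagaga
Sox8: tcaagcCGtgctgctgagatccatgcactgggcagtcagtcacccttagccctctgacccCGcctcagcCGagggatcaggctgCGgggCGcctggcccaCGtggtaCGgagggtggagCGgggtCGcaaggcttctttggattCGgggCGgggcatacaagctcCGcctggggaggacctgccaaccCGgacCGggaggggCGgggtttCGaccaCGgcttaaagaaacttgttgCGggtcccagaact
The Sox2 run holds 27 CG, more than 91.4% of the 32851 promoters of the table, whose median is 6. Sox8 holds 18, and Sox21 and Sox11 hold 17 each. The TATA box letters TATAAA, searched on both strands, were in none of the 4 runs and in 12.4% of all promoters of the same length. The CCAAT box letters CCAAT lay on the opposite strand of the Sox2 run, 46 bases before the start, and of the Sox11 run, 60 bases before it, and were in 33.8% of all promoters. The GC box letters GGGCGG were found 2 times each in the Sox2, Sox11 and Sox8 runs and not in Sox21, against 32.7% of all promoters with at least 1. Of the SOX core letters, ACAAAG was found 1 time, in the Sox2 run, and in 16.5% of all promoters, and ACAATG in none of the 4 runs and in 10.7% of all promoters.

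No 5mC was read in these runs. In oxBS libraries, which read 5mC without 5hmC, 0 of 142 calls were methylated over the Sox2 run, which allows a share of up to 2.11%. Counts were 0 of 90 for Sox21 (up to 3.33%), 0 of 105 for Sox11 (up to 2.86%) and 0 of 164 for Sox8 (up to 1.83%). Within each age the numbers of calls were 78 young adult and 64 aged for Sox2, 66 and 24 for Sox21, 64 and 41 for Sox11, and 106 and 58 for Sox8. In BS libraries, which read both, 1 of 13 calls over the Sox21 run was methylated in young adult replicate 3. These limits rest on 3 counts and cover counting error only, since the reads carry no molecular identifiers. They take every call as independent, although neighbouring CG can be read on the same molecule, so the limits are likely too narrow.

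The RNA libraries held 16952482 to 41053986 reads and the oxBS libraries 13616283 to 21389132 CpG calls. The neural stem and progenitor markers Nes, Msi1, Vim, Egfr, Prom1 and Fabp7 passed the expression filter and summed to 6575 to 7906 RPM in young adult and 6020 to 7537 RPM in aged libraries, with 1 of the 6 (Egfr) higher in mean in aged cells. Nes stood at 10.43 ± 0.095 log2 RPM in the young adult and at 10.42 ± 0.098 in the aged libraries, and Prom1, the lowest of them, at 2.91 ± 0.19 and 2.65 ± 0.23 (SD, n = 3). The 7 astrocyte markers summed to 1500 to 1758 RPM in young adult and 1285 to 1378 RPM in aged libraries, with Gjb6 at 0 in all 6, and the 7 oligodendrocyte lineage markers to 1169 to 1352 and 1306 to 1404 RPM. The 6 microglial markers summed to 5.14 to 6.81 RPM (C1qa and Ptprc at 0), the 3 endothelial markers to 0.245 to 0.400 RPM, the 5 neuroblast and neuron markers to 9.23 to 15.7 RPM, and the 4 ependymal markers, of which 3 were in the table, to 30.5 to 98.3 RPM.

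All 8 SOX genes were expressed in NSPCs, over a range of more than 8-fold per length of transcript. RNA was deposited as log2 RPM, the log2 of reads scaled to a common library size (RPM). To set genes side by side, RPM were divided by a length in kb. For Sox1, Sox2, Sox3, Sox4, Sox11 and Sox21, genes of 1 exon, this was the span of the deposited gene model. For Sox8 and Sox9 it was the length of the GENCODE vM21 exons, 3118 bp of a span of 4795 bp and 4135 bp of 5537 bp. The full spans would lower both levels, and the place of Sox8 in the order depends on this choice. On this scale, over the 6 C57BL/6JBabr libraries, Sox2 was highest with a level of 54.9 ± 5.94 RPM per kb (SD, n = 6), followed by Sox4 with 41.8 ± 3.68. Both stood apart from each other and from the next genes, as no library of the lower gene reached the lowest library of the higher.

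A middle group followed whose neighbours overlapped in range. In it lay Sox11 with a level of 21.9 ± 4.76 RPM per kb, Sox3 with 21.3 ± 4.57, Sox9 with 20.7 ± 2.07, Sox8 with 16.1 ± 2.41 and Sox21 with 14.5 ± 2.96 (SD, n = 6 each). Sox1 was lowest with 6.57 ± 0.722 RPM per kb, below every library of Sox21. The deposited Sox11 model spans 2013 bp, whereas GENCODE vM21 gives the gene 8311 bp, so the level of Sox11 depends on the model more than those of the others. The library kit does not mark strand, and Sox1 and Sox2 lie inside the longer transcripts Sox1ot and Sox2ot on the same strand, while Sox21 shares 799 bp with Gm4675 and Sox4 shares 2753 bp with Gm26735 on the opposite strand, and GENCODE places 329 bp of the antisense transcript 2810468N07Rik over Sox8. Reads of such pairs can be told apart only in part.

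The first comparison asked whether SOX expression differs between NSPCs of young adult and aged mice. With limma's moderated test, 0 of 14858 genes reached an adjusted p under 0.05 (0%), so none of the 8 did. This fit leaves out the replicate numbers that young adult and aged libraries share, which a second fit below takes as a block. At an unadjusted p under 0.05 there were 258 genes, and edgeR's quasi-likelihood test called 0 genes and DESeq2 4, none of them a SOX gene. All 8 SOX genes had a higher mean in aged than in young adult NSPCs, with a median log2 difference of 0.12. In this fit, leaving out 1 library turned the difference of Sox3 (down to -0.17), Sox21 (-0.042) and Sox11 (-0.059). It also splits a pair of libraries with the same number. For replicate numbers 1, 2 and 3 the log2 difference was 0.12, 0.09 and 0.17 for Sox21 and 0.26, -0.06 and 0.32 for Sox11. For Sox3 it was 0.16, -0.07 and 0.009. The median log2 difference over all tested genes was 0.0015, and 50.6% of them had the higher mean in aged NSPCs. The 8 genes are measured in the same libraries and are not independent of each other.

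Sox8, which cooperates with Sox9 and Sox10 in oligodendrocyte development, showed the largest difference of the 8. It stood at 5.44, 5.65 and 5.35 log2 RPM in young adult replicates 1, 2 and 3 and at 5.95, 5.73 and 5.67 in aged replicates 1, 2 and 3. All 3 aged libraries were above all 3 young adult libraries, although aged replicate 3 exceeded young adult replicate 2 by little. Of all tested genes, 3.14% showed such a separation upwards, and Sox8 was the only one of the 8. The log2 difference was 0.31 (95% CI 0.05 to 0.56), a fold of 1.24, with an unadjusted p of 0.0251 and an adjusted p of 1.00 in limma.

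Young adult and aged libraries carry the same replicate numbers, and libraries with the same number deviated together across genes. A block for this number lowered the median residual SD of a gene from 0.173 to 0.108. In limma, 1229 genes then had an unadjusted p under 0.05, against 258 without it. Fitted with this number as a block, the model called 74 of the 14858 genes (0.498%), 30 higher and 44 lower in aged NSPCs, and again no SOX gene. Sox8 came nearest, with an adjusted p of 0.190 and a 95% CI of 0.12 to 0.49 for the log2 difference. Its difference was 0.52 in replicate number 1, 0.09 in number 2 and 0.32 in number 3.

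Among the SoxB1 genes, differences were smaller than the spread between derivations of an age, a spread that libraries with the same number shared in part. Sox2, the gene most used to mark neural stem cells, stood at 6.86, 7.01 and 7.15 log2 RPM in young adult and at 7.01, 7.06 and 7.32 in aged replicates 1 to 3. The ages overlapped, and the log2 difference was 0.12 (95% CI -0.14 to 0.39). Sox1 was at 4.75, 5.00 and 5.04 log2 RPM in young adult and at 4.82, 5.13 and 5.14 in aged NSPCs, a log2 difference of 0.10 (95% CI -0.19 to 0.38).

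In both genes each aged library exceeded the young adult library of its number, while replicate 1 was low at both ages. Sox3 differed more between libraries of an age than between the means of the ages. It was at 5.52, 5.70 and 5.00 log2 RPM in young adult and at 5.68, 5.64 and 5.01 in aged NSPCs, with replicate 3 lowest at both ages. The log2 difference was 0.03 (95% CI -0.48 to 0.55), narrowing to -0.12 to 0.19 with the block.

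Sox21, the SoxB2 gene, was at 5.57, 6.07 and 5.45 log2 RPM in young adult and at 5.69, 6.15 and 5.62 in aged NSPCs. Replicate 2 was highest at both ages, and the log2 difference was 0.12 (95% CI -0.31 to 0.56). Of the SoxC genes, Sox4 was at 7.61, 7.68 and 7.40 log2 RPM in young adult and at 7.80, 7.68 and 7.67 in aged NSPCs, with a log2 difference of 0.15 (95% CI -0.08 to 0.38). The libraries numbered 2 had the same level to 2 decimals, and those numbered 3 differed most. Sox11 was at 5.57, 5.58 and 4.88 log2 RPM in young adult and at 5.83, 5.52 and 5.20 in aged NSPCs, with a log2 difference of 0.17 (95% CI -0.33 to 0.68).

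Like Sox3, Sox11 was lowest in replicate 3 at both ages. Sox9, the other SoxE gene, was at 6.40, 6.14 and 6.52 log2 RPM in young adult and at 6.57, 6.38 and 6.46 in aged NSPCs. Its log2 difference was 0.12 (95% CI -0.14 to 0.37), and it was higher in young adult cells in replicate number 3. With the block, adjusted p of these 7 genes lay between 0.608 for Sox4 and 0.938 for Sox3 in limma. The 95% CI of each narrowed with the block and still included 0. It was -0.059 to 0.25 for Sox1, -0.014 to 0.26 for Sox2, -0.019 to 0.27 for Sox21 and -0.0017 to 0.30 for Sox4. For Sox11 it was -0.0092 to 0.36 and for Sox9 -0.044 to 0.28. Of the 8 genes, 5 (Sox1, Sox2, Sox21, Sox4 and Sox8) had the higher value in aged NSPCs for all 3 replicate numbers, though Sox4 by only 3.72e-05 in number 2, against 15.9% of all tested genes. The summed astrocyte markers given above were lower in all 3 aged libraries than in any young adult library, and their part in the SOX values was not tested.

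**Figure D1:**
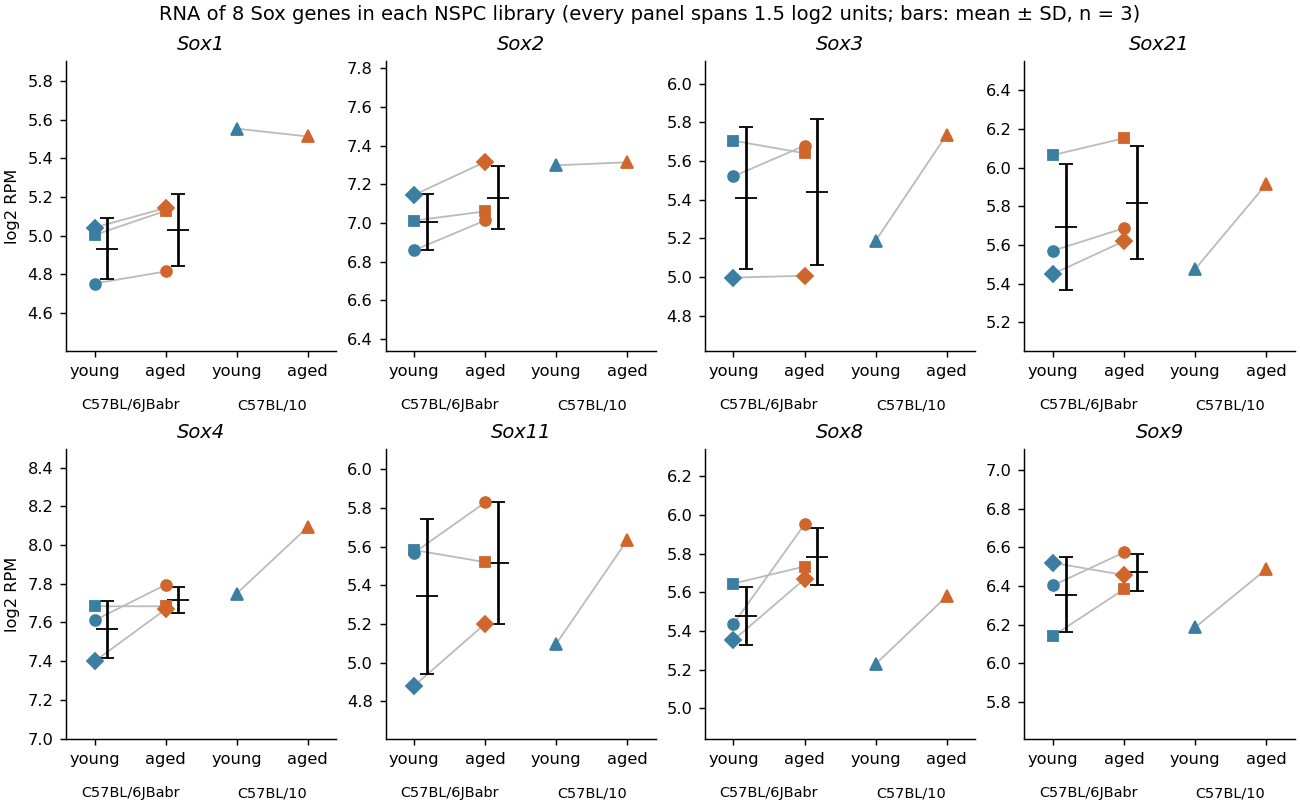
RNA of the 8 SOX genes in log2 RPM (y axis, 1.5 units in every panel) by age and strain (x axis). Circles, squares and diamonds are replicates 1, 2 and 3 of C57BL/6JBabr, triangles the single C57BL/10 libraries, lines join libraries of the same number, and bars give the mean ± SD (n = 3). Only in the Sox8 panel do all 3 aged points lie above all 3 young adult points, and Sox3 and Sox11 are lowest in replicate 3 at both ages.

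The C57BL/10 cohort showed higher values in aged NSPCs for 7 of the 8 genes, with a median log2 difference of 0.35 over the 8. With 1 library per age these are values without a replicate check, and their intervals cover counting error only. Over all tested genes the median was -0.01, and 47.9% were higher in the aged library. The aged library was at least 1.5-fold above the young adult library in 5.16% of the tested genes and in none of the 8 SOX genes.

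The largest values were those of Sox3 and Sox11. Sox3 went from 5.19 to 5.74 log2 RPM, a log2 difference of 0.55 (95% interval 0.43 to 0.67), and Sox11 from 5.10 to 5.63, a difference of 0.54 (0.41 to 0.66). Both were genes whose C57BL/6JBabr values overlapped between ages. Sox21 went from 5.47 to 5.91 log2 RPM, a difference of 0.44 (0.33 to 0.55), and Sox4 from 7.75 to 8.09, a difference of 0.34 (0.29 to 0.39). The SoxE genes were close to each other, Sox8 with 5.23 and 5.58 log2 RPM, a difference of 0.35 (0.23 to 0.47), and Sox9 with 6.19 and 6.49, a difference of 0.30 (0.21 to 0.39).

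Sox1 and Sox2 differed least in this strain. Sox2 was at 7.30 and 7.31 log2 RPM, a difference of 0.02 (95% interval -0.05 to 0.08), and Sox1 at 5.55 and 5.51, a difference of -0.04 (-0.16 to 0.08). Both intervals include 0. In the C57BL/10 pair the summed astrocyte markers were 1673 RPM in young adult and 1158 RPM in aged cells, and the oligodendrocyte lineage markers 1350 and 1643 RPM. The 6 named stem and progenitor markers summed to 8936 and 7520 RPM, and the neuroblast and neuron markers to 15.2 and 19.5 RPM. Their part in the SOX values was not tested.

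**Figure D2:**
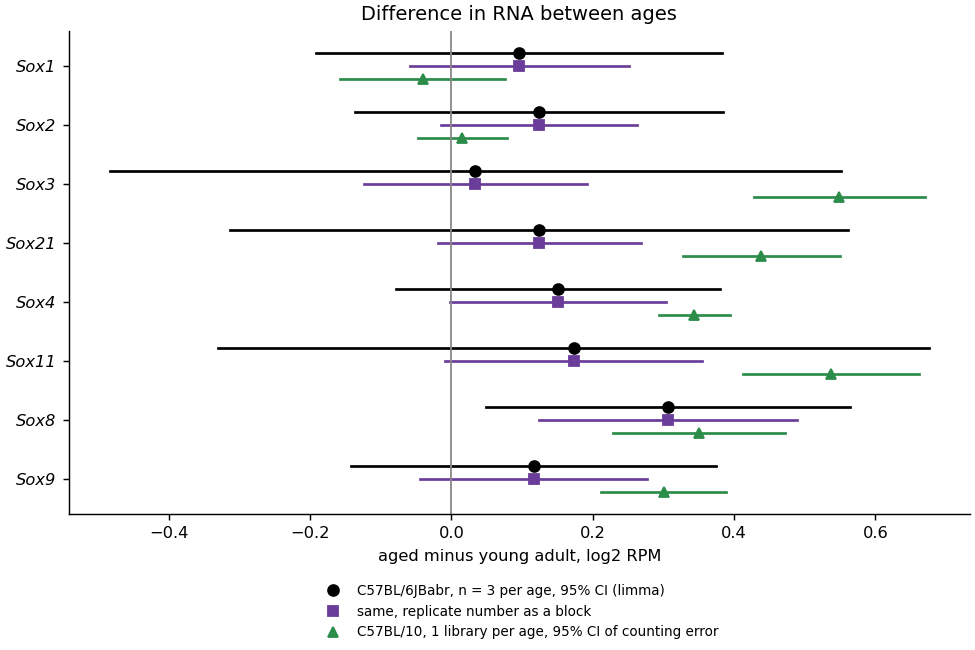
Aged minus young adult log2 RPM (x axis) of each SOX gene (y axis). Black circles give C57BL/6JBabr with the 95% CI of limma, purple squares the same with the replicate number as a block, and green triangles the C57BL/10 pair with a 95% interval of counting error. All estimates but the C57BL/10 value of Sox1 lie above 0, and of the C57BL/6JBabr intervals only those of Sox8 exclude 0.

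Between strains, Sox1 stood out by level. Both C57BL/10 libraries (5.55 and 5.51 log2 RPM) were above all 6 C57BL/6JBabr libraries, whose highest was 5.14, and the mean log2 difference was 0.55. Such a separation was common, as 31.4% of tested genes had both C57BL/10 libraries above and 13.4% below all 6. The other 7 SOX genes overlapped between strains when ages were pooled, with mean log2 differences from -0.23 for Sox8 to 0.28 for Sox4. Within each age, the C57BL/10 library was above the 3 C57BL/6JBabr libraries for Sox4 and below them for Sox8 at both ages. Every gene separated from all 6 libraries also meets this looser rule. It therefore holds for at least 31.4% of tested genes upwards and at least 13.4% downwards. Strain and animal facility cannot be told apart in these libraries.

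Some pairs of SOX genes varied together over the 8 RNA libraries. Sox1 and Sox2 had a Pearson r of 0.86, and Sox3 and Sox11 of 0.92, Sox9 reached at most 0.39 with any other member, and Sox2 and Sox11 had the lowest value, -0.47. These are descriptions over 8 libraries that share age, replicate number or strain. The gene most like each in pattern was Kif1b for Sox1 (r = 0.99), Ubxn2a for Sox2 (0.98), Qtrtd1 for Sox3 (0.96), Khsrp for Sox21 (0.98), Snrnp200 for Sox4 (0.99) and Zfp553 for Sox11 (0.99). For the SoxE genes the nearest were less alike, Lyn for Sox8 (0.94) and Trib3 for Sox9 (0.94). The genes second in likeness were Igsf3 for Sox1, AA415398 for Sox2, Hhipl2 for Sox3, Ppp4r1 for Sox21, Ehmt1 for Sox11, Zfp574 for Sox8 and H2-Ab1 for Sox9, with r of 0.92 to 0.99. An r over 0.95 was reached by 222 genes for Sox1 and by 0 for Sox8 and Sox9, so the likeness of Sox1 was shared widely.

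Of the 12 other SOX genes looked up, 6 passed the expression filter and none the test, with 5 of these 6 higher in aged NSPCs and a median log2 difference of 0.14. Sox6, named after its values were seen, regulates oligodendrocyte differentiation and had 4.96 ± 0.12 log2 RPM in the young adult libraries and 5.30 ± 0.051 in the aged ones (SD, n = 3). Its log2 difference was 0.33, with all aged libraries above all young adult ones and an adjusted p of 0.0805 in limma with the block. The largest difference upwards was that of Sox10, a SoxE gene of the oligodendrocyte lineage, with a log2 difference of 0.62 at a low level (-0.97 and -0.35 log2 RPM), and the largest downwards that of Sox7, a SoxF gene, with -0.34 (4.63 and 4.29). Neither passed the test. Sry, Sox14, Sox15, Sox17, Sox18 and Sox30 were below the filter.

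Partners and targets of SOX proteins did not pass the test either. Of 17 such genes, 17 were tested, 0 were called in limma with or without the block, and 11 had a higher mean in aged NSPCs, with a median log2 difference of 0.03. The largest difference upwards was that of Pou3f1, a POU factor, with 0.31 (3.13 and 3.44 log2 RPM), and downwards that of Dcx, a neuroblast gene, with -0.36 at a low level (-1.01 and -1.36). Of the transcripts beside the SOX genes, Sox2ot was at 5.24 and 5.48 log2 RPM in young adult and aged NSPCs, a difference of 0.24, Gm4675 at 3.33 and 3.46 and 2810468N07Rik, antisense to Sox8, at 2.97 and 3.23, a difference of 0.26 whose part in the Sox8 value was not tested. Gm5607, the name of Sox1ot in the deposited table, was at 1.36 in young adult and 0.86 in aged NSPCs, a difference of -0.50. In limma it had an unadjusted p of 0.0407 without the block and an adjusted p of 0.383 with it.

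At their promoters all 8 SOX genes carried the mark of active promoters, H3K4me3, and little of the Polycomb mark H3K27me3. The authors deposited 1 log2 RPM value per age for the window of 2.5 kb on either side of each start site (TSS), taken over the 3 replicates, so these values have no replicate error and were not tested. H3K4me3 in young adult NSPCs ranged from 5.97 for Sox3 to 7.14 for Sox8. Sox3 is the only one of the 8 on the X chromosome, in cells of male mice. Its young adult Input was also lowest, -0.18 log2 RPM against 0.46 to 1.59 for the others, and the part of this in its marks was not tested. As the mean of both ages, all 8 ranked between the 91.2 and 99.9 percentile of 25875 genes, where the median was 4.02. Sox21, with 6.99, and Sox8 were the highest before subtraction of Input, and each has a second annotated start with similar values, 6.80 and 7.08.

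H3K27me3 stayed below 1 log2 RPM in all 8 windows at both ages, the level taken from the study's plots. In young adult NSPCs it ran from -0.99 for Sox2 to 0.66 for Sox8, and as the mean of both ages it ranked between the 13.2 and 55.6 percentile of all genes, whose median was 0.36. By contrast, 37.3% of all windows were above the level in at least 1 age. The second window of Sox21 reached 1.04 in young adult cells. After subtraction of Input, H3K4me3 of the 8 genes was enriched by 5.49 to 6.16 log2 units in young adult NSPCs, with another order (Sox3 highest with 6.16, Sox8 second lowest with 5.55), and H3K27me3 lay between -1.63 and 0.07. Sox14 and Sox17, below the expression filter, had the reverse balance, with H3K27me3 of 6.44 and 6.25 as means of both ages, above their H3K4me3 of 3.20 and 2.81. So did Sox18, also below it (H3K27me3 5.07, H3K4me3 3.96), and Sox10, which passed it (3.38 and 0.68). Below the filter, Sox30 (2.15 and 2.70) and Sox15 (-0.62 and 0.31) did not, and Sry was low in both marks (-2.49 and -3.07). Sox7 carried both marks (H3K4me3 5.07, H3K27me3 3.26) while expressed.

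**Figure D3:**
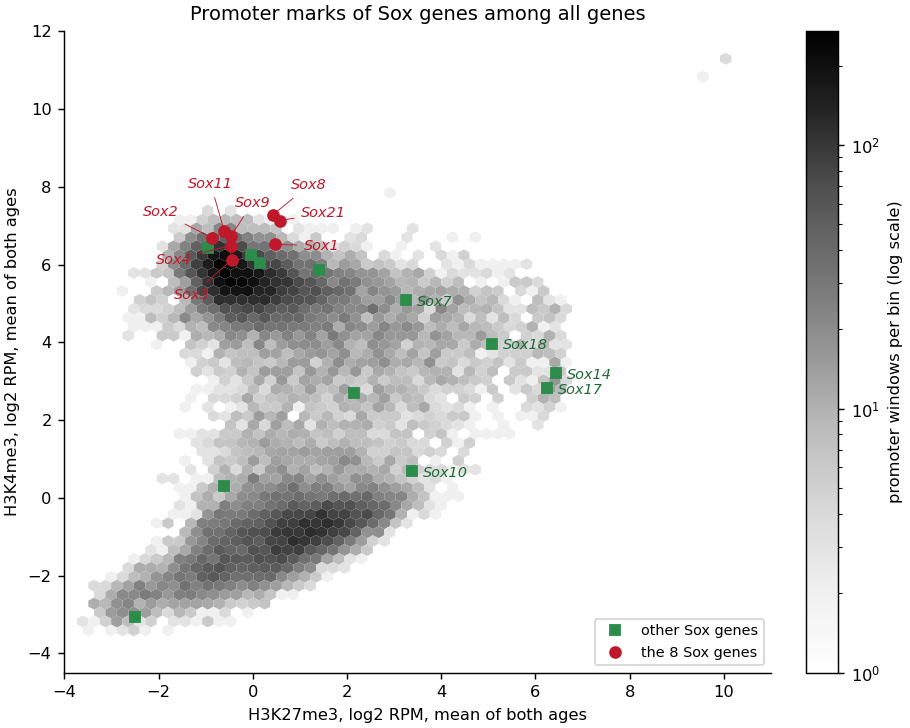
H3K27me3 (x axis) against H3K4me3 (y axis) in promoter windows, each as the mean log2 RPM of both ages, for all 25875 genes (grey, log scale of counts), the 8 SOX genes (red) and the 12 other SOX genes (green). The 8 genes lie together at high H3K4me3 and low H3K27me3, whereas Sox14, Sox17 and Sox18 lie at the far right.

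Between ages, H3K4me3 was higher in the aged value of all 8 genes, by 0.24 for Sox4 to 0.30 for Sox3 on the log2 scale. This was close to the shift of all windows above the level, 91.0% of which were higher in aged NSPCs, with a median difference of 0.21. Relative to that median the SOX genes differed by 0.03 to 0.09, and after quantile normalization by 0.01 to 0.07. With Input subtracted the differences spread from -0.02 for Sox3 to 0.55 for Sox21. None of the 8 differed by 1.5-fold, as 0.344% of the 16006 windows above the level did.

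H3K27me3 differed in both directions at these low levels. It was lower in the aged value for Sox3 (from -0.12 to -0.77), Sox21 (0.64 to 0.50), Sox4 (-0.05 to -0.85), Sox8 (0.66 to 0.20) and Sox9 (-0.26 to -0.66), and higher for Sox1 (0.27 to 0.68), Sox2 (-0.99 to -0.75) and Sox11 (-0.76 to -0.45). Sox3 and Sox4 passed a 1.5-fold difference, but in windows under the level, where Input exceeded the mark in the aged value (0.15 and 0.65 log2 RPM). Falls of this size were not rare, as 9.07% of all windows had a lower difference than Sox3 and 5.86% a lower one than Sox4. The Sox3 difference was -0.51 after quantile normalization, short of 1.5-fold, and -0.98 with Input subtracted. That of Sox4 was -0.65 after quantile normalization and -0.57, short of 1.5-fold, with Input subtracted. With Input subtracted Sox9 passed 1.5-fold (-0.62) and Sox21 turned to 0.13. Of the 9663 windows above the level, 3.93% differed by 1.5-fold, and the 8 genes, being under the level, are not among these windows.

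The start sites of the SOX genes lay in long stretches of low 5mC. In 1 kb bins outward from the TSS, on the strand of the gene, the unbroken run of bins under 10% 5mC reached 11 kb for Sox2, 2 kb upstream and 9 kb downstream, well past the end of its 2457 bp model. It was 6 kb for Sox11, 5 kb for Sox1, Sox8 and Sox9, and 4 kb for Sox3, Sox21 and Sox4. Over all 25875 genes the median was 0 kb, the 95th percentile 3 kb and the 99th 5 kb, and among genes with H3K4me3 above the level the median was 1 kb. All 8 were therefore beyond the 95th percentile. The low span of Sox4 began at the TSS, and those of the others began 1 or 2 kb before it.

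Long spans were not particular to SOX genes. Among the partner genes, Pou3f3 had 25 kb, Nfib 12 kb and Pou3f2 9 kb, named here after their values were seen, and Sox6 had 5 kb. Of the further SOX genes past the expression filter, Sox12 had 3 kb, Sox5 and Sox13 had 2 kb, and Sox7 and Sox10 had 0 kb. Of those below it, Sox14 had 2 kb, Sox17 and Sox18 had 1 kb, and Sry, Sox15 and Sox30 had 0 kb. Between 10 and 25 kb from the TSS, Sox2 still had a 5mC of 29.0% ± 0.268 in young adult cells and of 34.4% ± 2.90 in aged cells (SD, n = 3), while the means of the other 7 genes ran from 61.5% to 85.5%.

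**Figure D4:**
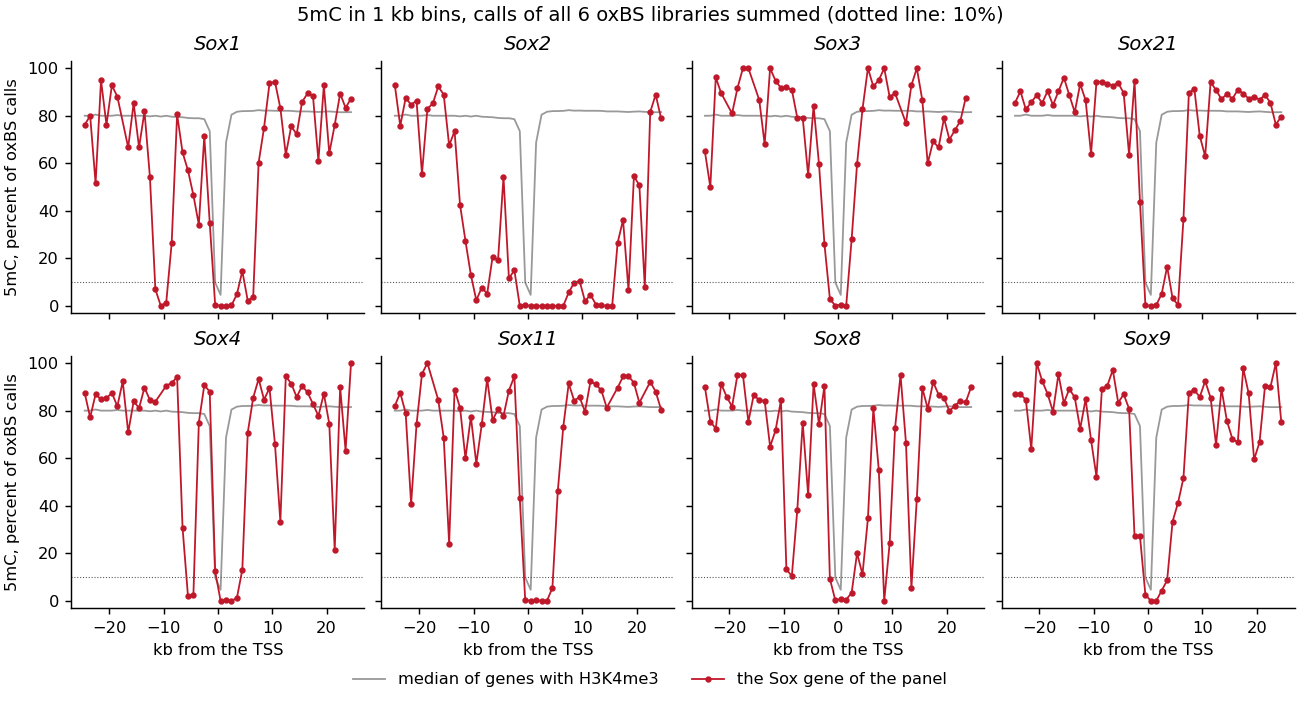
5mC as percent of oxBS calls (y axis) in 1 kb bins from 25 kb before to 25 kb after the TSS (x axis, downstream to the right), summed over the 6 oxBS libraries, bins with at least 10 calls. Red shows the SOX gene of each panel and grey the median of genes with H3K4me3 above the level, and the dotted line marks 10%. The Sox2 trough is the broadest, with a run of 11 kb under the line, and those of Sox3, Sox21 and Sox4 extend over 4 kb.

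The same windows were rich in CpG. In the 5 kb around the TSS, 7 of the 8 genes held between 251 CpG (Sox9) and 354 (Sox3), where the median was 93 over all genes and 126 over those with H3K4me3. Sox8 was apart with 185 CpG, the 90.2 percentile of all genes, and an observed to expected ratio of 0.43, compared with 0.68 to 0.83 for the others.

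Promoter 5mC of the same 5 kb window was low at both ages. The median over 23784 promoters was 34.0%, and the means of the 8 genes were between 0.957% and 7.39%, all within the lowest 3.97% of promoters. Among the 15846 promoters with H3K4me3 above the level the median was 23.9%, and the 8 genes were within the lowest 5.94%. Calls per window and library ranged from 74 to 373, so a single library's percentage carries an interval of several points. Sox2 was lowest in young adult NSPCs with 1.10% ± 0.344 (SD, n = 3), beside 0.969% ± 0.805 in aged. Sox3 had 1.22% ± 0.807 and 0.957% ± 0.968, Sox11 2.76% ± 0.613 and 2.67% ± 1.36, and Sox21 4.04% ± 1.19 and 3.95% ± 0.986.

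Sox8 and Sox4 were higher and also alike between ages. Sox8 had 5.12% ± 0.164 in the young adult libraries and 5.05% ± 1.49 in the aged ones (SD, n = 3). Sox4 had 7.39% ± 3.27 and 7.09% ± 3.22, the widest spread, from 3.59% in aged replicate 2 to 11.2% in young adult replicate 1. Within 1 kb of the TSS the means of 7 genes were at most 1.55%, and Sox4 had means of 2.39% in young adult and 6.58% in aged libraries.

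The quasi-binomial model called 0 of 23784 promoters (0%) between ages, 1291 having an unadjusted p under 0.05, and so none of the 8. Sox9 was the only one whose ages did not overlap. Its 5mC was 7.14%, 8.63% and 6.27% in young adult and 4.07%, 5.29% and 5.11% in aged replicates 1 to 3, a difference of -2.52 percentage points. Aged libraries were all below young adult libraries in 4.57% of promoters. The adjusted p of Sox9 in this model was 0.952.

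In the BS libraries, which read 5mC and 5hmC together, the Sox9 ages overlapped, with 4.95%, 12.03% and 6.86% in young adult and 2.78%, 5.42% and 10.8% in aged NSPCs. In the oxBS libraries the difference lay between 1 and 3 kb from the TSS, where Sox9 had 17.3% ± 4.34 and 9.25% ± 2.67 (SD, n = 3), a band chosen after its values were seen. Both neighbouring bands went the other way, from 0.404% to 1.55% within 1 kb and from 41.2% to 47.8% between 3 and 5 kb. Further out, means went from 75.3% to 74.6% between 5 and 10 kb and from 83.7% to 81.1% between 10 and 25 kb. Over the whole promoter window, Sox1 had a difference similar to that of Sox9, -2.30 points, from 4.66% ± 1.21 to 2.35% ± 1.51, but overlapped between ages. The Sox1 difference was 0.957 points in BS libraries and -0.388 within 1 kb of the TSS. For the other 6 genes the difference was under 0.3 points.

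**Figure D5:**
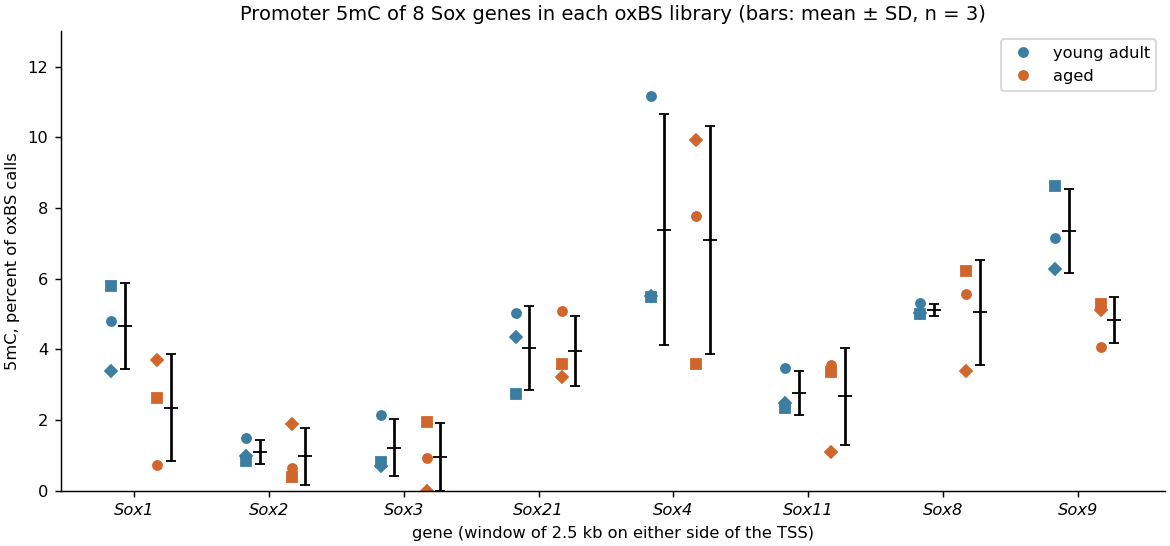
Promoter 5mC in percent of oxBS calls (y axis) for each SOX gene (x axis) in the 5 kb window around the TSS. Circles, squares and diamonds are replicates 1, 2 and 3, blue young adult and orange aged, with the mean ± SD (n = 3). All points lie at or below 11.2%, and only for Sox9 do the 3 aged points lie below the 3 young adult points.

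5hmC, estimated as BS minus oxBS of the same replicate number, was low and scattered at these promoters. Of 48 such differences over 8 genes and 6 numbered pairs, 12 were below 0, which a true level cannot be, and the median of the 48 was 1.201 percentage points. Over all promoters with enough calls, the median of each promoter's mean of 6 pairs was 0.817 points. Sox8 had the highest means, 2.82 ± 2.56 points in young adult cells and 3.08 ± 0.549 in aged cells (SD, n = 3), where the lowest pair was at 2.74. For Sox4 the aged values ran from -5.13 to 8.24 points. In two-sided exact permutation tests between ages p ran from 0.1 to 1 over the 8 genes, and 0.1 is the smallest that 3 against 3 can give.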

How the data were processed

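The authors deposited log2 RPM per gene and library for RNA, and log2 RPM per age over the 3 replicates for ChIP windows. The deposited methylation files give, per CpG of GRCm38, counts of methylated and unmethylated calls and a percent, which was computed anew here from summed calls. The submitters' processing notes name STAR 2.3.0, Bowtie2 2.2.5 and Bismark 0.12.5 without roles. The members and gene lists were chosen with earlier results of these data known. Named are the 8 genes, any gene of 2 SOX-related lists past a threshold with the largest difference upwards and downwards of each, overlapping transcripts, and the 2 genes most like each member. A marker and a gene of the last kind are not reported here.

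Ages were compared in RNA by the moderated test of limma (trend option), restricted to genes whose mean log2 RPM was -2 or more, with Benjamini-Hochberg adjustment at 0.05. Whole reads, recovered from the steps of low values (100% of values up to 1000 reads within 0.02 reads), served edgeR and DESeq2. Deviations of libraries with the same replicate number correlated by 0.659, 0.179 and 0.724 across genes, so the number was taken to pair RNA libraries. No source used here says whether they share a culture day. Replicates are separate derivations made on different days. Each gene has 1 ChIP window, that of the transcript with the highest H3K4me3. For promoters, summed oxBS calls (10 or more in each library) entered a quasi-binomial fit whose dispersion was moderated across promoters. Low spans end at a bin of 10% or more, and bins with under 10 calls are bridged. Models were tested on simulated data. Tools were R 4.3.3, limma 3.58.1, edgeR 4.0.16, DESeq2 1.42.0, Python 3.11.15, numpy 2.4.6, pandas 2.3.3, scipy 1.17.1 and matplotlib 3.10.9.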

Additional observations from a re-analysis of the deposited data

Results flagged for a closer look

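The sign of the Sox1 RNA difference was not the same in the 2 strains, and both intervals include 0. It was higher in the aged C57BL/6JBabr library in all 3 replicate numbers, by 0.06, 0.13 and 0.10 log2 units, and lower in the single C57BL/10 pair, by -0.040. The difference between strains was not tested. The C57BL/6JBabr mean difference was 0.096 (95% CI -0.19 to 0.38, with the block -0.059 to 0.25), and the C57BL/10 value has a counting interval that includes 0 (-0.16 to 0.08).

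At the Sox1 promoter BS minus oxBS was below 0 in all 3 young adult pairs (-1.47, -1.60 and -0.77 percentage points) and above 0 in all 3 aged pairs (3.47, 1.07 and 1.41). The mean differed between ages by 3.26 points, with p = 0.1 in a two-sided exact permutation test, the smallest that 3 against 3 can give. Of all promoters with enough calls, 1.62% showed this pattern. In the young adult cells the oxBS value exceeded the BS value, which 5hmC cannot produce, and the 5mC difference of Sox1 given above rests on the same oxBS calls.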

How the results depend on the processing

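The count of RNA genes called was 0 under 5 other settings and with any library left out (0 to 0), but 74 with the replicate block and 4 with DESeq2. The block changed no call of a SOX gene. Windows changed by 1.5-fold numbered 743 for H3K4me3 and 808 for H3K27me3 with Input subtracted, the cause was not tested, and quantile normalization gave 51 and 373. The 5 other settings of promoter 5mC, the replicate block included, called 0 (0 to 0 with a library left out), and promoter libraries with the same number did not deviate together (r of -0.015, 0.00084 and 0.027). RNA fits with a library left out have no block and split a numbered pair. Leaving out a library turned the RNA difference of Sox3 (-0.17 to 0.25), Sox21 (-0.042 to 0.31) and Sox11 (-0.059 to 0.33). It moved by over 1.5 times, without turning, those of Sox1 (0.0060 to 0.20), Sox9 (0.0097 to 0.20), Sox2 (0.031 to 0.19) and Sox4 (0.068 to 0.21), while Sox8 kept 0.22 to 0.39. It also turned promoter 5mC differences of Sox2 (-0.589 to 0.161 points), Sox3 (-0.753 to 0.215), Sox21 (-0.737 to 0.418), Sox4 (-1.71 to 1.59), Sox11 (-0.536 to 0.686) and Sox8 (-0.648 to 0.773), not those of Sox1 (-2.98 to -1.49) and Sox9 (-3.06 to -1.88). Within 1 kb of the TSS the 5mC difference was 0.370 points for Sox2, 0.585 for Sox3, 0.218 for Sox21, 4.19 for Sox4 and 1.15 for Sox9, in place of values below 0. In BS libraries it was 0.957 for Sox1, 0.594 for Sox2, 1.17 for Sox3, 1.60 for Sox4 and 0.193 for Sox8, also reversed. None of these values passed the test. The median low span of 5 kb stayed within 1.5 times under each alternative, but that of Sox2 was 20 kb, of Sox1 8 kb and of Sox21 7 kb with bins under 20%, that of Sox21 7 kb in aged libraries alone and that of Sox1 8 kb in BS libraries. Between 74 and 373 calls stand behind each library's 5mC value.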
